A study of Brassica napus with 30 samples.

Results

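Seeds of oilseed rape (Brassica napus) that had taken up water for 36 h at 8 °C were compared between the genotypes JY1621 and JY1605, and are called cold 36 h seeds here. The comparison rests on 6 RNA sequencing libraries of 30, 3 per genotype, and on 57945 of the 100919 gene models in the deposited count table. These are the gene models that reached 0.531 CPM (counts scaled to a common library total) in 3 libraries or more of the 30. The remaining 24 libraries hold the same genotypes as dry seeds, after 8 h (warm 8 h seeds at 25 °C, cold 8 h seeds at 8 °C) and after 36 h at 25 °C (warm 36 h seeds), again with 3 libraries per group. Each library was made from the RNA of 100 whole seeds. Both 36 h groups of each genotype were taken at zeitgeber time 12, the 8 h groups at 8 and the dry seeds at 0. A difference between the genotypes within a condition is therefore free of time of day, whereas dry, 8 h and 36 h seeds differ in time of day as well as in age. Replicates are labelled as biological, without a statement on seed lots. The sources used here do not say what else distinguishes the genotypes.

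Oilseed rape is an allotetraploid that carries an A subgenome, from the lineage of Brassica rapa, and a C subgenome, from that of Brassica oleracea, so that many genes are present as a pair of homoeologous copies. Stored mRNA in a dry seed is degraded and replaced during imbibition, the uptake of water that starts germination. Low temperature slows this program, and oilseed rape lines differ in how fast they germinate in the cold. Exchanges between homoeologous chromosomes, in which a stretch of a subgenome is replaced by its partner, are frequent in this species.

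The ID of a gene model names its chromosome, or an unplaced scaffold, and gives its place in the order there. The IDs matched 0 of 123214 genes in the reference table used here, which describes another assembly. The results are accordingly given by chromosome, by course of expression and for 4 gene models by ID. No marker genes of seed tissues could be looked up, and in whole seeds fewer cells of a type and less RNA per cell cannot be told apart. The treatment of reads that match both homoeologous copies is also not stated, so the count of a copy can hold reads of its partner.

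Total counts in cold 36 h seeds were 32780431, 26060840 and 26978429 in JY1605 and 35172867, 30375406 and 15901888 in JY1621, in replicate order. Pearson correlations of log2 CPM across gene models ran from 0.984 to 0.990 within a genotype and from 0.896 to 0.902 between genotypes. Chi-square values of pairs of the same genotype, per degree of freedom, were 2.92 to 6.63, and every pair differed by more than sampling noise. Replicate 3 of JY1605 stood apart in another way. In the libraries of the other 4 conditions, 28 gene models were restricted to JY1621, with a mean of at least 5 CPM there in each condition and a median of 0 over the JY1605 libraries. Replicate 3 held 189 counts in 14 of them, 1.34% of the level in JY1621. Replicates 1 and 2 of JY1605 held 0.0233% and 0.0805%, and the JY1621 libraries held 0%, 0.136% and 0.259% of the JY1605 level over 13 gene models restricted the other way. The main counts of calls, the listed windows and the candidate gene models are given below with and without it.

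Many gene models differed between the genotypes after 36 h in the cold, in both directions. At an adjusted p under 0.05 and a fold change of at least 2, that is an absolute log2 difference of at least 1, 7037 were called higher in JY1621 and 7389 were called lower (edgeR quasi-likelihood F-test with Benjamini-Hochberg adjustment over all tested). These are 12.1% and 12.8% of the tested gene models, 24.9% together, and 43519 were not called. Without replicate 3 of JY1605 the counts were 6004 and 7271. Whether more gene models were higher or lower depended on the scaling and on single libraries. Scaling by library size alone gave 7563 higher and 7024 lower, leaving out replicate 2 of JY1605 gave 7536 and 7153, and leaving out replicate 3 of JY1621 gave 7304 and 7207.

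Most of these differences were modest in size, but a tail reached far. The median log2 difference was 1.59 among the higher calls and -1.82 among the lower calls, against 0 over all tested gene models. A log2 difference of at least 2 was reached by 2692 higher and 3234 lower calls. At 5 or more, 839 gene models were higher and 466 lower, or 936 and 463 without replicate 3 of JY1605. For a gene model with no count in a genotype, the fitted difference depends on the prior count of the fit.

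**Figure D1:**
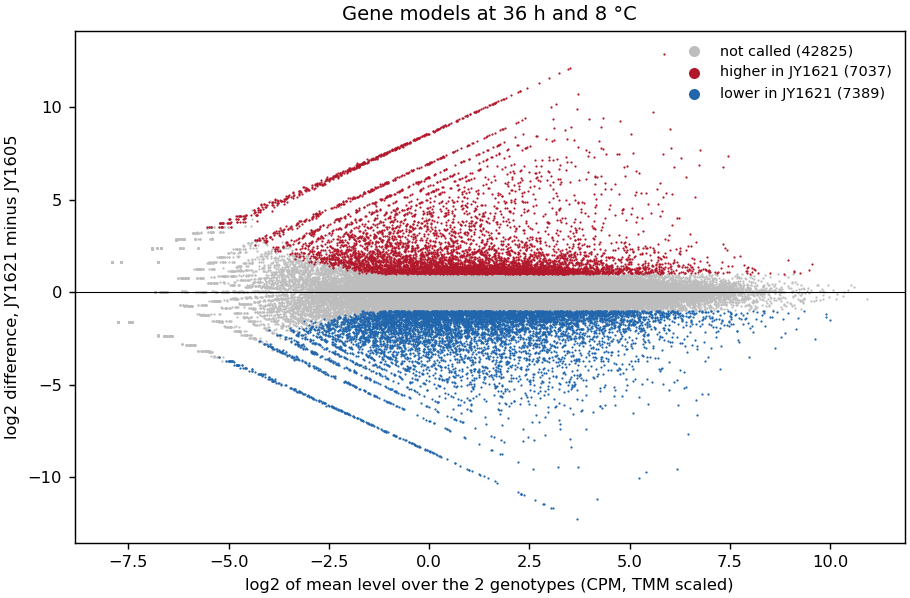
Each point is a tested gene model in cold 36 h seeds, with the log2 of its mean level over both genotypes (CPM, scaled by TMM, the trimmed mean of M-values) on the x axis and the log2 difference, JY1621 minus JY1605, on the y axis. The 7037 higher and 7389 lower calls lie beyond 1 and -1, the rays at the left and the edges are gene models with few counts in a genotype, and 694 tested gene models with no count in the 6 libraries are not drawn.

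Abundant transcripts differed less often than rare ones. Of the gene models under 1 CPM on average, 31.3% were called, and of those from 1 to 5 CPM 31.3%. The share was 19.95% from 5 to 20 CPM, 11.7% from 20 to 100 CPM and 11.5% at 100 CPM or more. Among the 1502 gene models of the last class, 58 were higher and 114 lower in JY1621. The lists of the 100 most abundant gene models of each genotype shared 66 members. Of the 134 on either list, 107 were not called, 8 were higher and 19 lower in JY1621, with log2 differences from -3.51 to 1.73.

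Slightly less of the counts was taken up by the top of the list in JY1621. At 1 CPM or more, 41257, 41226 and 41110 gene models were detected in the JY1605 libraries and 41127, 41212 and 41230 in those of JY1621 (exact two-sided permutation test, p = 0.9). On average JY1621 libraries held 110 more at 0.5 CPM (p = 0.3 by the same exact permutation test) and 293 more at 5 CPM (exact p = 0.1), so the breadth depended on the limit. The 100 most abundant gene models of a library took 8.21%, 8.42% and 8.23% of all counts of JY1605 libraries and 7.74%, 7.79% and 7.79% of those of JY1621. These shares did not overlap (exact two-sided permutation test, p = 0.1, adjusted 0.125 over 15 such measures). With 3 libraries against 3, 0.1 is the smallest p possible, so no such measure could pass 0.05, and 12 of the 15 did not overlap between the genotypes. For the A chromosomes the share of counts was 48.3% ± 0.135 (SD, n = 3) in JY1605, against 48.3% ± 0.114 in JY1621 (p = 0.9 by the same exact permutation test).

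A part of the difference between the genotypes was there in every condition sampled, from the dry seed on. Of the higher calls, 1771 (25.2%) were also called higher in the other 4 conditions, and of the lower calls 2033 (27.5%) were also called lower there. Their median log2 differences in cold 36 h seeds were 4.18 and -3.13, or 3.80 and -3.10 with levels under 3 counts per group set to that floor. Large differences recurred most: of the higher calls at a log2 difference of 5 or more 83.4% were called in all 5 conditions, from 2 to 5 39.3% and from 1 to 2 7.89%. The same shares of the lower calls were 78.1%, 44.8% and 10.3%. A difference near the limit of 1 loses its call with a small shift, so it can last without a call in all 5 conditions. The genotype difference was called for 20.3% of gene models in dry seeds, 24.5% in warm 8 h seeds, 21% in cold 8 h seeds and 48.1% in warm 36 h seeds.

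The overlap was widest with warm 8 h seeds. There 65.0% of the higher and 60.5% of the lower calls were called in the same direction, where 12.9% of all tested gene models were higher and 11.6% lower. In warm 36 h seeds these shares were 59.9% and 52.0%, where 21.1% of all tested gene models were higher and 27% lower. In cold 8 h seeds they were 46.7% and 46.1%, against 12.1% and 8.89% of all, and in dry seeds 43.9% and 45.6%, against 10.8% and 9.52% of all. With replicate 3 of JY1605 left out, the shares of the higher calls were 64.7% in warm 8 h seeds, 54.2% in warm 36 h seeds, 54.0% in cold 8 h seeds and 50.4% in dry seeds. The difference between conditions was tested directly as the genotype difference in cold 36 h seeds minus that in the other condition, in the same fit and with the same thresholds. It was called for 7.59% of gene models against warm 8 h seeds, 13.3% against dry seeds, 14.5% against cold 8 h seeds and 40.6% against warm 36 h seeds. For 2825 (40.1%) of the higher and 3271 (44.3%) of the lower calls it was called against no condition in the direction of the call. Over all tested gene models, 1538 (2.65%) were higher and 2861 (4.94%) lower against warm 8 h seeds, and 3339 (5.76%) and 4355 (7.52%) against dry seeds. The counts against cold 8 h seeds were 3242 (5.59%) and 5161 (8.91%), and those against warm 36 h seeds 11487 (19.8%) and 12052 (20.8%). The higher counts became 2971 against dry seeds and 2534 against cold 8 h seeds when replicate 3 of JY1605 was left out. With scaling by library size alone the counts against warm 8 h seeds became 2071 and 2308 and those against cold 8 h seeds 2030 and 6557, the median of all gene models having moved by 0.126 and -0.155 (log2). Against warm 36 h seeds that median moved by 0.161, and the median genotype difference itself by 0.191 in cold 8 h seeds, -0.200 in warm 36 h seeds and 0.042 in cold 36 h seeds.

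Some gene models were called in opposite directions in warm and cold seeds of the same age. Of the gene models higher in JY1621 in cold 36 h seeds, 987 (14.03%) were lower there in warm 36 h seeds, and of those lower at 8 °C 904 (12.2%) were higher at 25 °C. Over all tested gene models, 27% were lower and 21.1% higher in warm 36 h seeds. The opposite calls numbered 935 and 916 without replicate 3 of JY1605. Among the 987, the median log2 difference was 1.85 at 8 °C and -1.86 at 25 °C. Most of that contrast lay in JY1605, whose median level was 0.181 CPM at 8 °C and 5.80 CPM at 25 °C, against 0.688 and 1.34 CPM in JY1621. Among the 904, the median log2 difference was -1.46 at 8 °C and 1.75 at 25 °C, with median levels of 5.67 and 0.498 CPM in JY1605 and 1.95 and 1.76 CPM in JY1621. In both sets the JY1605 medians were further apart between temperatures than those of JY1621. The sets were chosen by calls in these same libraries, so their levels are a description. Of the 987, 172 had under 3 counts in a genotype at 8 °C, and of the 904, 4. Opposite calls were fewer elsewhere. In dry seeds 43 higher and 236 lower calls were opposite. The counts were 30 and 325 in cold 8 h seeds and 35 and 71 in warm 8 h seeds. Calls over all tested gene models were fewer there too. In dry seeds 9.52% were lower and 10.8% higher. These shares were 8.89% and 12.1% in cold 8 h seeds and 11.6% and 12.9% in warm 8 h seeds. Relative to warm 36 h seeds, however, the counts of opposite calls were smaller by a larger factor than these shares. This held in dry, cold 8 h and warm 8 h seeds, for higher and for lower calls. The size of this gap was not tested.

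Gene models called in cold 36 h seeds alone were few. An absolute log2 difference under 1 in another condition counts as no call there, whatever its p-value. No call in any other condition was made for 512 of the higher and 903 of the lower calls. When the difference from each of the other 4 conditions had also to be called, 38 higher and 90 lower gene models were left. The 38 lay on 16 chromosomes and the 90 on 18, with at most 6 and 11 on a chromosome. That chromosome was A03 in both cases, which held 3771 of the 57945 tested gene models. The median log2 differences of the 38 and the 90 were 1.59 and -1.62. In the other conditions they ran from -0.383 to 0.121 and from -0.102 to 0.233. This contrast follows from the rule that chose them. In 26 of the 38, the cold 36 h seeds of JY1605 had the lowest mean of all 10 groups, and in 8 the JY1621 seeds had the highest. In 44 of the 90, the JY1605 seeds had the highest mean of the 10 groups, and in 28 the JY1621 seeds had the lowest. Among all 7037 higher calls, cold 36 h seeds of JY1605 had the lowest mean in 1197 and those of JY1621 the highest in 1206. Among all 7389 lower calls, JY1605 had the highest mean in 2178 and JY1621 the lowest in 1539. Without replicate 3 of JY1605, 39 higher and 100 lower gene models were left, with JY1605 lowest in 24 of the 39 and highest in 50 of the 100.

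Among abundant gene models of that kind, BnaA04G0104900ZS on A04 was the one with the largest higher call, among 15 that met the same rule. It stood at 2.89, 3.15 and 4.73 CPM in the JY1605 libraries and at 21.2, 24.6 and 22.9 CPM in those of JY1621. The rule required a call and no overlap between the genotypes, so this separation and its p-value are a description. The log2 difference was 2.68 ± 0.157 (SE, edgeR adjusted p = 7.33e-19). Cold 36 h seeds of JY1621 held more of this transcript than any other group. In JY1621 it went from 1.25 ± 0.261 CPM in dry seeds and 1.77 ± 0.682 in cold 8 h seeds to 9.68 ± 1.55 in warm 8 h seeds and 12.2 ± 0.523 in warm 36 h seeds. In JY1605 the group means elsewhere ran from 1.90 to 6.90 CPM. JY1621 was also higher, below the limit of 1, in warm seeds. The log2 difference was 0.870 ± 0.159 at 8 h and 0.822 ± 0.148 at 36 h (SE, edgeR adjusted p = 1.17e-05 and 3.66e-06). It was -0.845 ± 0.276 in dry seeds and -0.102 ± 0.256 in cold 8 h seeds (SE, edgeR adjusted p = 0.0117 and 0.8). The genotype difference in cold 36 h seeds exceeded that in warm 8 h seeds by 1.81 ± 0.222, that in warm 36 h seeds by 1.86 ± 0.214, that in cold 8 h seeds by 2.78 ± 0.302 and that in dry seeds by 3.52 ± 0.318 (SE, log2; edgeR adjusted p at most 7.72e-08).

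BnaA09G0587900ZS on A09 had the largest lower call of the same kind, among 24. It stood at 137.8, 152.2 and 121.0 CPM in JY1605, whereas the JY1621 libraries held 20.9, 19.7 and 19.5 CPM. The log2 difference was -2.77 ± 0.113 (SE, edgeR adjusted p = 2.85e-24), and the call and the lack of overlap were again required by the rule. Here the cold 36 h seeds of JY1605 stood out from every other group. JY1605 held 11.4 ± 1.77 CPM in dry seeds, 10.9 ± 1.18 in cold 8 h seeds, 18.6 ± 2.44 in warm 8 h seeds and 1.48 ± 0.320 in warm 36 h seeds. JY1621 held 17.8 ± 1.55 CPM in dry seeds, close to its 20.02 ± 0.756 in cold 36 h seeds, and 1.87 ± 0.331 in warm 36 h seeds (SD, n = 3). Smaller genotype differences, under 1 in absolute log2, were there in the other 4 conditions. They were 0.656 ± 0.134 in dry seeds, 0.713 ± 0.131 in cold 8 h seeds and 0.416 ± 0.187 in warm 36 h seeds. In warm 8 h seeds the difference was -0.810 ± 0.121 (SE, edgeR adjusted p at most 0.0416 for all 4). Minus those of the other 4 conditions, the genotype difference in cold 36 h seeds was -3.49 ± 0.171 to -1.96 ± 0.163 on the log2 scale (SE, edgeR adjusted p at most 1.88e-11).

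The other 2 gene models named show differences of the lasting kind. BnaC01G0513600ZS on C01 held 136.3, 127.4 and 126.4 CPM in JY1621 and 0, 0.177 and 1.64 CPM in JY1605, a log2 difference of 7.80 ± 0.450 (SE, edgeR adjusted p = 2.5e-12). Of its 54 counts in JY1605, 49 lay in replicate 3, the library that stood apart. Without it the log2 difference was 10.61, so the SE does not cover the dependence on that library. Group means of BnaC01G0513600ZS in the other conditions ran from 125.7 to 190.8 CPM in JY1621 and from 0.397 to 0.724 CPM in JY1605. BnaA01G0394300ZS on A01 held 168.2, 171.3 and 179.2 CPM in JY1605 and 0.880, 0.466 and 1.39 CPM in JY1621, a log2 difference of -7.69 ± 0.282 (SE, edgeR adjusted p = 3.57e-16). Elsewhere its JY1605 means were 188.0 to 268.7 CPM and its JY1621 means 0.398 to 1.33 CPM. Both transcripts were thus abundant in a genotype and near 0 in the other at every stage. They were the largest differences among 324 higher and 421 lower candidates called in all 5 conditions, which had to reach 30 counts in each genotype. Without replicate 3 of JY1605, BnaC01G0513600ZS had 5 counts there and was no candidate, so its place depended on that library.

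**Figure D2:**
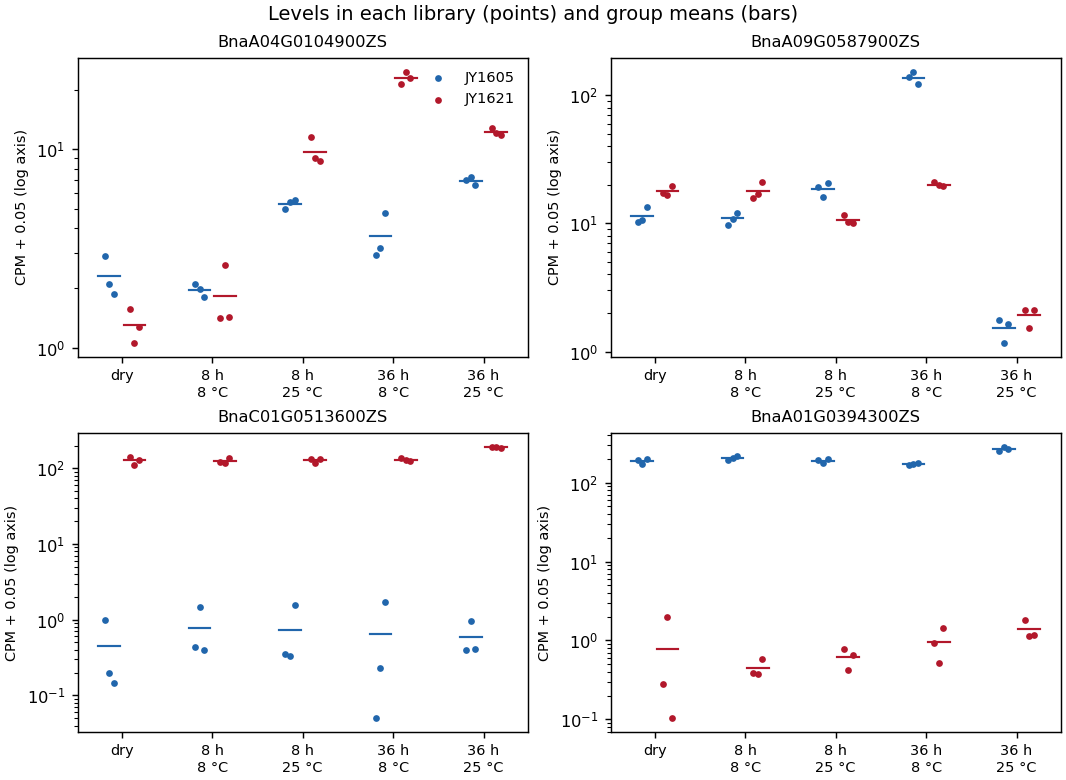
Levels of the 4 named gene models in all 30 libraries, on a log axis in CPM (TMM scaled, with 0.05 added so that a 0 can be drawn), by condition and genotype; points are libraries and bars group means. The upper gene models separate the genotypes most in cold 36 h seeds, at 3.59 and 22.9 CPM on the left and 137.0 and 20.02 CPM on the right, and the lower ones do so in all 5 conditions.

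The direction of a difference went with what the gene model did during warm germination. Gene models were grouped by their calls from dry seeds to 8 h and from 8 h to 36 h in the warm where both genotypes had the same calls. The group means behind these calls use none of the 6 libraries compared, but filter, scaling and spread came from the fit of all 30. At the first step 45.4% of gene models were called in JY1605 and 41.6% in JY1621, and at the second 55.7% and 26.3%. Of 756 gene models that rose at both steps in both genotypes, 24.6% were higher and 7.14% lower in JY1621 in cold 36 h seeds, with a median log2 difference of 0.37. Of 704 that fell at both steps, 4.69% were higher and 41.6% lower, with a median of -0.83. Over all tested gene models these shares were 12.1% and 12.8%. Higher calls were thus the more frequent among transcripts that accumulated over both warm steps, and lower calls among those that declined over both. Leaving out each of the 30 libraries in turn gave 23.4% to 25.7% higher for the former and 38.1% to 45.1% lower for the latter.

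The other courses with the same calls in both genotypes held 4.73% to 13.5% higher and 6.86% to 17.6% lower calls. Gene models that rose at the second step only, from 8 h to 36 h, numbered 3745, of which 13.5% were higher and 6.86% lower. Those that rose at the first step only numbered 3786, with 5.97% higher and 8.24% lower, both below the shares over all. Of 1437 that rose and then fell 16.3% were lower and 4.73% higher, and of 1088 that fell at the second step only 17.6% and 6.80%. Gene models that fell at the first step only were lower in 13.4% and higher in 6.30% of 2523. Those that fell and then rose were lower in 11.98% and higher in 7.404% of 1202. The 10699 gene models without a call at either step were nearly balanced, at 8.69% higher and 8.94% lower. In the remaining 32005 the genotypes differed in a call, and 14.9% were higher and 14.4% lower.

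Shares of counts are given per library for these courses. The gene models that rose at both steps took 0.470%, 0.503% and 0.465% of all counts in JY1605 against 0.631%, 0.594% and 0.610% in JY1621. Those that fell at both steps took 2.57%, 3.00% and 2.68% in JY1605 and 1.60%, 2.17% and 1.64% in JY1621. In neither case did the genotypes overlap (exact two-sided permutation test, p = 0.1 for each, adjusted 0.125). Share and calls did not go together in every course. Gene models that rose at the first step only took a share of 9.66% ± 0.045 for JY1605 and 10.5% ± 0.197 for JY1621 (SD over 3 libraries), although more of them were called lower than higher, and those that fell and then rose took 0.881% and 0.923%. Leaving out the chromosome stretches and scaffolds described next changed the shares of calls little, to 24.6% higher of 737 that rose at both steps and 42.0% lower of 688 that fell at both.

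**Figure D3:**
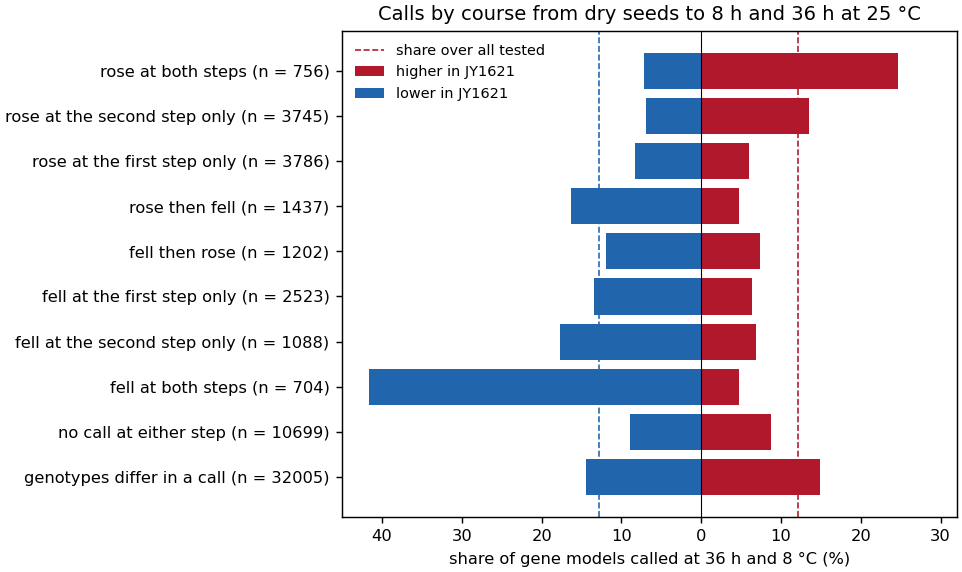
Share of gene models called lower (left, blue) and higher (right, red) in JY1621 in cold 36 h seeds, in percent on the x axis, by their course from dry seeds to 8 h and 36 h in the warm in both genotypes; n is the number of gene models and dashed lines are the shares over all tested. The higher share is 24.6% for gene models that rose at both steps and the lower share 41.6% for those that fell at both.

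Differences were spread over all chromosomes, with concentrations on a few. On C02, JY1621 was higher in 288 and lower in 716 of 2825 gene models. On A05, 804 of 3226 were higher and 306 lower, and on A09 818 of 4436 were higher and 509 lower. The balance thus leaned to lower calls on C02 and to higher calls on A05 and A09. On A10, 148 of 2024 (7.31%) were higher and 352 (17.4%) lower, against 12.1% and 12.8% over all tested gene models. Lower calls also made up 18.3% on A01 and 16.5% on A04, and higher calls 16.9% on A02 and 17.1% on C01. Of the gene models on unplaced scaffolds, 556 of 1203 (46.2%) were higher and 44 lower. With replicate 3 of JY1605 left out, the higher calls fell to 519 on A05, 593 on A09, 140 on A10 and 277 on the scaffolds, and C02 held 284 higher and 703 lower calls. Over the A chromosomes 13.7% were higher and 13.3% lower, and over the C chromosomes 9.26% and 12.6%.

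To place them, each chromosome was divided into windows of 50 consecutive tested gene models in the order of their IDs, 1135 in all, and the median log2 difference of each window was taken. In 910 windows (80.2%) it was under 0.25 in absolute value. It was at least 1 in 64 windows, 44 higher and 20 lower in JY1621, which held 3186 gene models (5.50% of those tested), 1401 of the higher and 794 of the lower calls. The lowest absolute median among these was 1.003 and the highest among the others 0.996. Since 37 of the 64 lay between 1 and 1.2, the number listed depends on this limit, and without replicate 3 of JY1605 only 12 higher and 19 lower windows were left. A10 had none of these windows. Its window medians ran from -0.70 to 0.15. Outside the listed windows 10.4% of gene models were higher and 13.6% lower on the A chromosomes, and 8.7% and 11% on the C chromosomes.

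The listed windows were of different kinds when looked up in dry seeds, which share no library with the comparison. In 33 of them the genotypes differed in the same direction in dry seeds, with a median of at least 0.5 in absolute value. In the other 31, all of them higher in JY1621, the dry-seed medians ran from -0.24 to 0.35. Since the windows were listed by their medians in cold 36 h seeds, the calls within them, and the differences from other conditions that use those seeds, are a description.

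**Figure D4:**
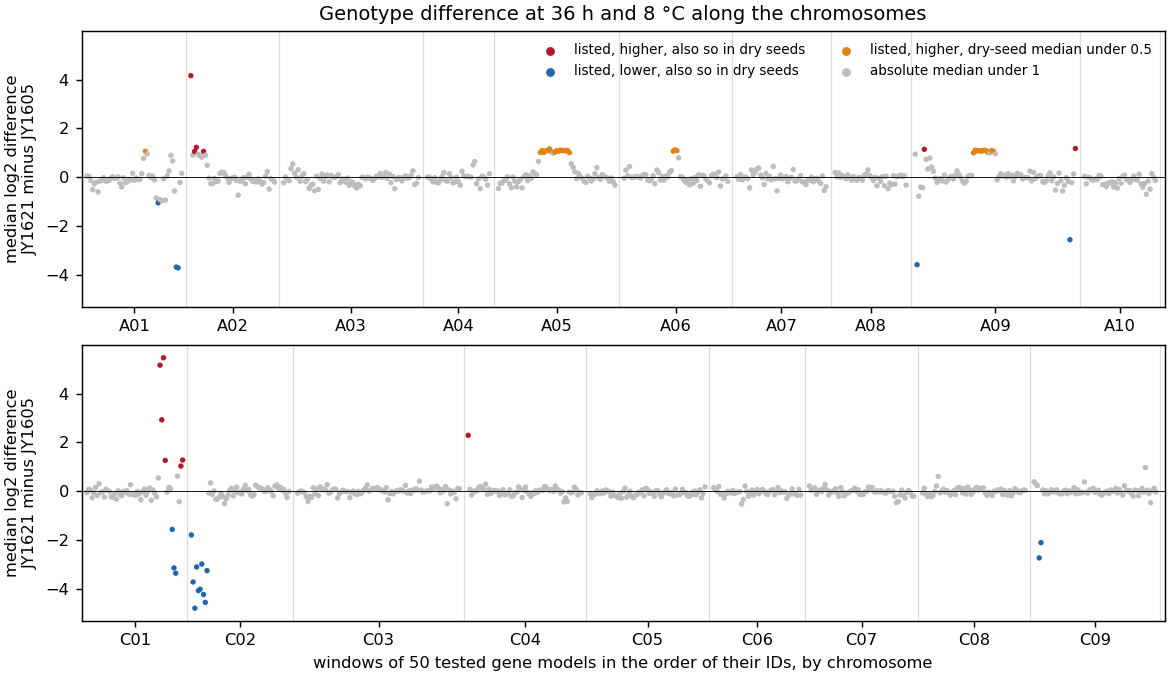
Median log2 difference in cold 36 h seeds, JY1621 minus JY1605, in windows of 50 consecutive tested gene models by ID order (x axis, A chromosomes above and C chromosomes below). Windows at an absolute median of at least 1 are coloured by direction and by whether the dry-seed median reaches 0.5 in absolute value; the start of C02 reaches -4.80, and the plateaus near 1.1 on A05, A06 and A09 are the windows with a dry-seed median under 0.5.

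The start of C02 was the longest of the stretches whose direction was the same in dry seeds. Its first 10 windows held 500 gene models, of which 421 were lower and 6 higher in JY1621, with a median log2 difference of -3.70, or -3.56 with levels under 3 counts set to that floor. Summed over these gene models, the level was 8438, 8518 and 8418 CPM in JY1605 and 1082, 1154 and 1152 CPM in JY1621. The median was -3.32 in dry seeds, -3.63 in warm 8 h seeds, -3.21 in cold 8 h seeds and -3.40 in warm 36 h seeds, so this stretch was low in JY1621 throughout. At the start of A02 the difference ran the other way. Its first 9 windows held 450 gene models, of which 209 were higher and 11 lower, with a median log2 difference of 1.00. Their summed level was 6289, 6233 and 6363 CPM in JY1605 and 13010, 12490 and 12870 CPM in JY1621. Only 4 of these 9 windows reached a median of 1, and the others lay from 0.8 to 1.

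Shorter stretches of this kind lay on other chromosomes. On C01, windows 43 to 46 had a median of 3.77 (157 of 200 gene models higher), windows 50 to 52 one of -2.86 (103 of 150 lower) and windows 55 and 56 one of 1.11. On A01, windows 50 and 51 had a median of -3.71, with 82 of 100 gene models lower. On A09, window 2 stood at -3.58, window 86 at -2.56, window 6 at 1.15 and window 89 at 1.18. The first window of C04 stood at 2.29, and windows 4 and 5 of C09 at -2.41. Each of these stretches had a median of the same sign in all 5 conditions. Over the 20 lower windows, the difference from dry seeds was called higher in 4.3% of 1000 gene models and lower in 9.1%, against 5.76% and 7.52% over all tested. For warm 36 h seeds these shares were 12.8% and 20.2%, against 19.8% and 20.8% over all. Over the 13 higher windows, the difference from warm 36 h seeds was called higher in 22.5% and lower in 11.3% of 636, against the same 19.8% and 20.8%.

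The 31 windows with a dry-seed median under 0.5 followed another pattern, and they did so together. They held 1550 gene models on A01 (1 window), A05 (16), A06 (3) and A09 (11), of which 980 were higher and 3 lower in JY1621. Their median log2 difference was 0.05 in dry seeds and 0.003 in cold 8 h seeds, 1.10 in warm 8 h seeds, 1.08 in cold 36 h seeds and 2.75 in warm 36 h seeds. The difference from dry seeds was called higher in 698 (45.0%), that from cold 8 h seeds in 827 (53.4%), and that from warm 36 h seeds lower in 1376 (88.8%). Over all tested gene models these shares were 5.76%, 5.59% and 20.8%. Against warm 8 h seeds only 1 (0.0645%) was called higher and 3 (0.194%) lower, where 2.65% and 4.94% of all tested gene models were.

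Levels are shown for the 16 windows on A05, summed over their gene models. In dry seeds the sum was 7877, 7813 and 7852 CPM in JY1605 and 8240, 7645 and 8149 CPM in JY1621. In cold 36 h seeds it was 2179, 3144 and 1686 CPM in JY1605 and 5164, 5334 and 4114 CPM in JY1621. In warm 36 h seeds it was 472.3, 563.1 and 470.6 CPM in JY1605 and 3268, 3542 and 3492 CPM in JY1621. At 36 h the level was thus below that of dry seeds in both genotypes, and further below in JY1605. In cold 8 h seeds it was still near that of dry seeds, from 6903 to 7018 CPM in JY1605 and from 6356 to 7322 CPM in JY1621.

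The libraries of a genotype differed in these 31 windows as well. Summed over all of them, JY1605 held 4174, 6022 and 3262 CPM in cold 36 h seeds and JY1621 held 9766, 10070 and 7813 CPM. In each of the 31 windows, replicate 2 was the highest and replicate 3 the lowest of JY1605, and replicate 3 was the lowest of JY1621. All JY1621 libraries also lay above all JY1605 libraries there. The windows were listed by these same libraries and many are neighbours, so that separation is a description. In the other 33 windows the spread was smaller, for example 13520, 13590 and 13260 CPM in JY1621 over the higher ones. Without replicate 3 of JY1605 the median over the 1550 gene models was 0.90 and 469 were called higher, and without its replicate 2 the median was 1.33 and 1293 were called. The gene models on unplaced scaffolds followed the same course, with medians of 0.02 in dry seeds, -0.04 in cold 8 h seeds, 1.02 in warm 8 h seeds, 1.00 in cold 36 h seeds and 2.62 in warm 36 h seeds. Their share of counts was 0.246%, 0.332% and 0.197% for JY1605 and 0.531%, 0.551% and 0.433% for JY1621, with the same order of replicates within JY1605.

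**Figure D5:**
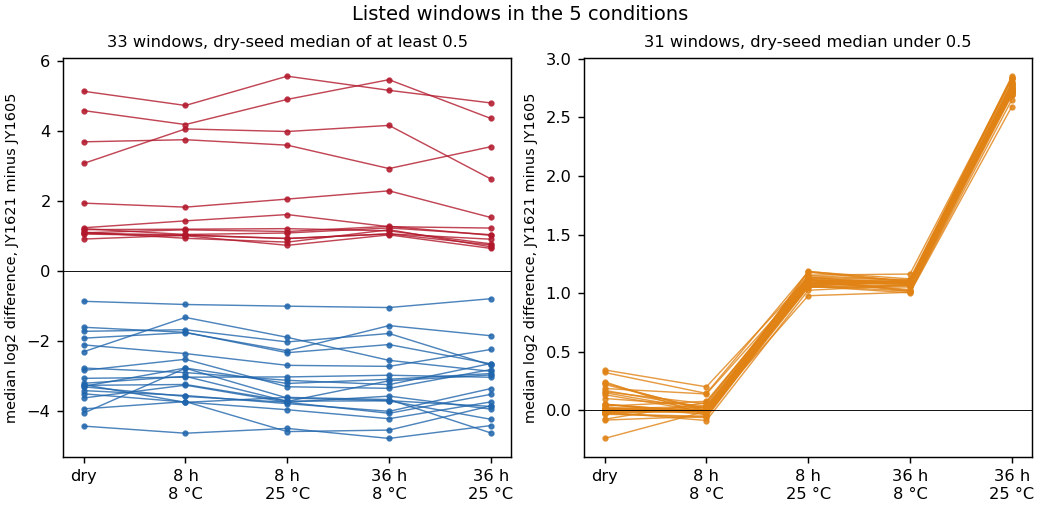
Median log2 difference, JY1621 minus JY1605, of each listed window (a line) in the 5 conditions. The 33 windows on the left have an absolute dry-seed median of at least 0.5 and keep their sign in every condition; the 31 on the right lie between -0.24 and 0.35 in dry seeds, near 1.1 in cold 36 h seeds and between 2.59 and 2.85 in warm 36 h seeds.

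Some gene models had no count at all in a genotype. With at least 10 CPM by summed counts in the other, 9 had no count in JY1605 and 11 none in JY1621. The lower bounds of their differences, set against a floor of 3 counts over the group, ran from at least 294-fold to at least 766-fold higher in JY1621 and from at least 274-fold to at least 780-fold lower. Such bounds allow for counting error alone, as reads are not independent molecules. Of the 11, 6 lay on C02, which held 2825 of the 57945 tested gene models. Of the 9, 2 lay on A05, which held 3226, too few to read as a concentration. Without replicate 3 of JY1605 the number with no count in JY1605 was 29, of which 8 lay on C01 (2816 tested). The number with no count in JY1621 was again 11. Only 1 of the 9 and 2 of the 11 had no count in that genotype in all 4 other conditions as well.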

How the data were processed

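RNA of 100 seeds per sample was sequenced in 30 libraries, 10 groups of 3. The values are raw counts per gene model, deposited by the authors in a single table. The tools named in the submitters' processing notes are HISAT2 2.2.1, featureCounts 2.0.6 and, in addition, DESeq2 1.42.0. Not given in the sources used here: parameters, strand, annotation and genome build. The counts were checked to be whole numbers with totals from 14250480 to 78251632 per library, and all columns matched a sample. Of 100919 gene models, 14800 had no count.

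Gene models were kept by filterByExpr (minimum count 10, minimum total 15), and TMM factors and quasi-likelihood F-tests of edgeR 4.0.16 (R 4.3.3, robust) were applied in a single model of the 30 libraries with the 10 group means, which pools the spread over groups. Calls need a Benjamini-Hochberg adjusted p under 0.05 over all tested and a log2 fold change of 1 or more in absolute value. Standard errors are the log2 fold change over the root of its F statistic. P-values measure the spread between these samples, which may be partly technical. Log2 CPM for correlations used a prior count of 2. Exact two-sided permutation tests compared the shares of counts. The functions were tested on simulated data.

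The comparison, the gene models and the windows were chosen with earlier results of these data known. Named gene models have a mean of at least 8 CPM, at least 30 counts per genotype and no overlap. In each direction they are the largest log2 difference among those called at 36 h and 8 °C alone and different from the other 4 conditions, and the largest among those called in all 5. Same-numbered replicates of both genotypes correlated at 0.023, 0.103 and 0.0859 in their deviations, and in 0 of 45 pairs of groups were all such correlations over 0.1, so the numbers were not taken to pair samples. Alternatives were DESeq2's factors within edgeR, library size scaling, the Wald test of DESeq2, all gene models with no low-count filter, no minimum fold change, a fit of the 6 libraries, a replicate block, other windows and CPM minima, and each library left out in turn. The counts by size, direction, chromosome and candidate without replicate 3 of JY1605 were chosen after seeing the data.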

Additional observations from a re-analysis of the deposited data

Results flagged for a closer look

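The genotype difference in cold 36 h seeds differed from that in another condition, by the edgeR test of the difference itself, for 7694 gene models against dry seeds, 4399 against warm 8 h seeds, 8403 against cold 8 h seeds and 23539 against warm 36 h seeds. For BnaA04G0104900ZS the genotype difference was larger in cold 36 h seeds by 3.52 than in dry seeds, by 1.81 than in warm 8 h seeds, by 2.78 than in cold 8 h seeds and by 1.86 than in warm 36 h seeds, on the log2 scale. For BnaA09G0587900ZS the same comparisons gave -3.43, -1.96, -3.49 and -3.19. Both gene models were chosen by the calls of these differences and by libraries that did not overlap, so their values are a description.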

How the results depend on the processing

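The counts of calls between the genotypes ran from 6436 (DESeq2's factors within edgeR) to 7812 (no low-count filter) higher and from 7024 (library size scaling) to 8310 (no low-count filter) lower over the settings with the same thresholds and all gene models and libraries. The DESeq2 Wald test gave 6459 and 7758, with 6 adjusted p-values not given by the tool. A fit of the 6 libraries gave 6815 and 7347. Without the listed windows the counts were 5793 and 6413, and without the scaffolds as well, an alternative chosen after seeing the data, 5297 and 6240. With a replicate block they were 6997 and 7329, and 6792 and 7303 in the fit of the 6 libraries, and the block moved no count of calls by over 1.5 times.

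With library size scaling the difference from cold 8 h seeds was called higher in 2030. Without a minimum fold change, 14475 gene models were higher and 14487 lower. Such calls of the difference from dry seeds were 7528 and 7570, from warm 8 h seeds 5392 and 6038, and from cold 8 h seeds 8568 and 8312. The genotype difference was then called higher and lower for 11952 and 11883 in dry seeds, 14611 and 14442 in warm 8 h seeds, 12082 and 12554 in cold 8 h seeds, and 20042 and 23883 in warm 36 h seeds, and in all 5 conditions for 3114 and 3353. These larger counts follow from the looser rule.

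The small difference in detected gene models turned from -8 at 1 CPM to 110 at 0.5 CPM (exact permutation p = 0.3) and 293 at 5 CPM (exact permutation p = 0.1), and ran from -51.8 to 23.3 when a library was left out. The difference in the A share ran from -0.034 to 0.095 percentage points. Leaving out a library gave 6004 to 7536 higher and 7037 to 7406 lower calls. Windows of 25 gene models listed 99 higher and 45 lower, and windows of 100 listed 21 and 8. Gene models without a count in a genotype numbered 84 and 39 at 2 CPM and 33 and 17 at 5 CPM. Of the tested gene models, 16725 lay under 1 CPM, and the effect of depth on their calls was not tested.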

Other observations

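Other JY1605 libraries also held counts of the 28 gene models restricted to JY1621. Replicate 1 at 8 h and 8 °C held 1.419% of the JY1621 level in 7 of them and replicate 2 at 36 h and 25 °C 0.822% in 14. The remaining JY1605 libraries outside 36 h and 8 °C held 0.0109% to 0.419%.

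Windows just below the limit for listing clustered too. Of 16 windows with an absolute median from 0.8 to under 1 at 36 h and 8 °C, 6 lay on A01 and 5 on A02.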
